A study of Mus musculus with 2 samples.

Results

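The genes described here are the chemokine ligands and receptors, the interleukins and their receptor chains, and the Toll-like receptors (TLRs) of the mouse. They were taken by name as every protein-coding gene whose symbol is Ccl, Ccr, Cxcl, Cxcr, Tlr or Il followed by a digit, without Il1rapl1 and Il1rapl2. This gave 144 of 21755 protein-coding genes on chromosomes 1 to 19 and X, namely 35 chemokine ligands, 41 interleukins and antagonists, 17 chemokine receptors, 39 interleukin receptor chains and 12 TLRs. Il4i1, a secreted amino acid oxidase named for its induction by interleukin 4, met the rule by name and was kept with the interleukins. DNase-seq finds open chromatin as the places where DNase I cuts the DNA of isolated nuclei. The tissue was left cerebral cortex from 2 male mice of strain B6CASTF1/J, each 36 days old and each giving 1 library, with no treatment named in the labels. B6CASTF1/J is a first-generation cross of 2 inbred strains, and both libraries were placed on mm10, which represents 1 of those parents. Both mice have the same donor label and different animal numbers, and they form a single group without a control, so no test across animals was possible.

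Chemokines are small secreted proteins that draw leukocytes along a gradient through G protein-coupled receptors. Interleukins signal between immune and tissue cells through paired receptor chains that feed JAK-STAT or, for the interleukin 1 family, MyD88 and NF-kB. TLRs recognise microbial molecules through their outer domains and signal through MyD88 or, as for Tlr3, through the adaptor Ticam1 (TRIF). In the healthy brain these systems are carried largely by microglia, vascular cells and astrocytes, while a few members, such as Cxcl12, Cxcl14, Il34 and Il33, are known from resting neural tissue.

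Sequences of accessible sites at 8 of these genes are printed first, because they carry the contrasts described afterwards. Among them are a tall CpG-rich receptor promoter and inducible cytokine genes with a peak. The Tlr4 and Cxcl10 promoters had peaks below the median height of the authors' shorter peak lists. The sequences were read from GRCm38.p6 on the strand of the gene. For Il1rap, Il6, Il33, Il12b, Cxcr4 and Tlr4, capitals mark bases that lay in a footprint in both mice, a footprint being a short run that the authors listed as protected from DNase I. For Il1r2 capitals mark CACGTG, and for Cxcl10 they mark TGAGTCA, a form of the AP-1 pattern TGANTCA. The Il1rap, Il33, Tlr4 and Cxcl10 stretches end at the base before the first annotated start in the peak. The Il6 stretch is the widest footprint of replicate 1 in the first part of the gene, 39 bp in an intron, and the Il1r2 stretch is the last 200 bases of the peak at an internal start.
Il1rap (chr16:26581501-26581703, plus strand): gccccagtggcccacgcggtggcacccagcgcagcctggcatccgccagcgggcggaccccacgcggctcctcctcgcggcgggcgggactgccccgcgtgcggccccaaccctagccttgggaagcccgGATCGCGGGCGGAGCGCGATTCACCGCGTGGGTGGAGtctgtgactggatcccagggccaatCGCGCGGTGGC
Il6 (chr5:30013273-30013311, plus strand): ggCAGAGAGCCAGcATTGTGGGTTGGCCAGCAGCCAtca
Il33 (chr19:29924981-29925113, plus strand): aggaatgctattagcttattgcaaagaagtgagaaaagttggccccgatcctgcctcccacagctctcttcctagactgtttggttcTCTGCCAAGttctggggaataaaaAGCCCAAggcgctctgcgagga
Il12b (chr11:44399061-44399220, plus strand): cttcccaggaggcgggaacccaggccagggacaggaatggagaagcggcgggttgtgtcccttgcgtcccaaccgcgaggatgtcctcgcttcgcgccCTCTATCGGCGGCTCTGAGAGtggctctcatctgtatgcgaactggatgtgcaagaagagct
Cxcr4 (chr1:128593001-128593300, minus strand): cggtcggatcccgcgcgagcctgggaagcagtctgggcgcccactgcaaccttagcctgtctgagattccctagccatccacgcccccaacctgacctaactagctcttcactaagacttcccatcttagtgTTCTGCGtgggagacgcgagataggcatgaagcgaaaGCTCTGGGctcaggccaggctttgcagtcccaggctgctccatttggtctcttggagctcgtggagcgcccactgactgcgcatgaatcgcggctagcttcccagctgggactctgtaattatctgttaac
Il1r2 (chr1:40085781-40085980, plus strand): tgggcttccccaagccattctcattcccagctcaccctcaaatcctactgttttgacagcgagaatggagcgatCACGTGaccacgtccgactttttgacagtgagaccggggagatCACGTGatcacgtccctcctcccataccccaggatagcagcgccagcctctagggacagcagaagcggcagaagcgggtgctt
Tlr4 (chr4:66827481-66827583, plus strand): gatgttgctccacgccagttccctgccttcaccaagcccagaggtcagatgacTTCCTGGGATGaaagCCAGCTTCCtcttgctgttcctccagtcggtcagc
Cxcl10 (chr5:92348890-92349003, minus strand): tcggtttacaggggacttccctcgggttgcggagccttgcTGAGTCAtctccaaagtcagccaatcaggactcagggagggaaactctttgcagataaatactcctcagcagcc

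The Il1rap stretch had a GC content of 75.9% and the Il33 stretch 49.6%. In the Il12b peak, 923 bp upstream of the start, the footprint shared by both mice ran over part of GCGCCCTCT, a reverse-strand match to AGNGGGCGC, a loose form of the core of the CTCF pattern. In the Cxcr4 peak the matches to AGNGGGCGC from 128593058 and from 128593256 had 4 and 0 bases in footprints of replicate 1. Neither had any in replicate 2. That pattern was added after the sequence was seen, and 3.95% of the promoter sites of these genes and 4.13% of all coding promoter sites held it on either strand. Both CACGTG matches of Il1r2 lay inside footprints of replicate 2 and outside those of replicate 1. CACGTG, also added after the sequence was seen, was found in 7.89% of the family's promoter sites and 6.94% of all coding promoter sites. Such a match describes the letters and is not a bound site.

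The shares below count a gene as having a promoter peak if the authors' shorter list had a peak at most 1 kb from one of its annotated starts. Replicate 1 had such a peak at 42 of the 144 genes (29.2%), against 63.5% of all coding genes. Replicate 2 had one at 30 genes (20.8%), against 58.4% of all coding genes. The mean was 25% ± 5.89 for the family and 61.2% ± 3.61 for all other coding genes (SD, n = 2 mice), so the gap was larger than the spread between the mice. In both mice 27 family genes had a peak, against 57.7% of all coding genes, and 99 had none in either. In bulk tissue, a gene open in few cells and a gene weakly open in many cannot be told apart.

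**Figure D1:**
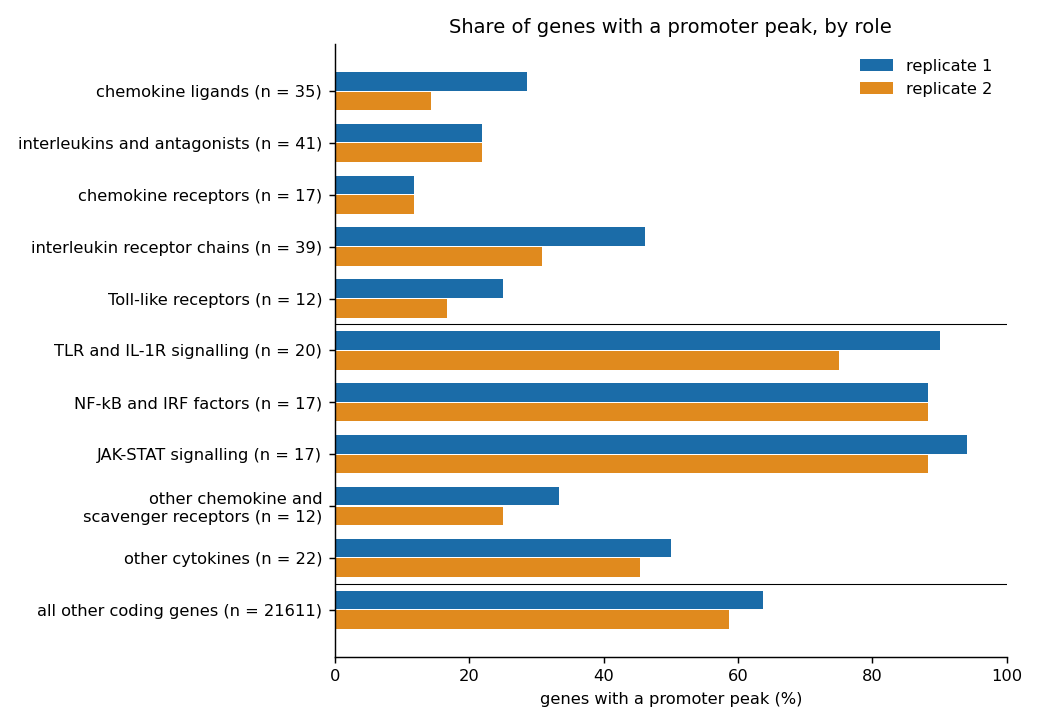
Share of genes with a promoter peak in replicate 1 and replicate 2 for the 5 role classes, 5 lists of signalling and cytokine genes, and all other coding genes; the horizontal axis is percent of genes and n is the number of genes. All 5 role classes lie below all other coding genes in both mice, with interleukin receptor chains the highest of the 5. The 3 lists of TLR and interleukin 1 receptor signalling, NF-kB and IRF, and JAK-STAT genes lie above.

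The libraries held 72021 and 59150 peaks in the shorter list and 125119 and 103840 in the longer one. Peak heights were whole multiples of 1 step per library, which, if 1 step stands for 1 DNase I cut, gives depths of 160 M cuts (replicate 1) and 145 M cuts (replicate 2). Whether a height counts cuts at 1 position or over a window is not stated. Heights are given on that depth-normalised scale, a pair of heights after a gene being those of replicates 1 and 2, and their median over all peaks was 1.18 in replicate 1 and 0.963 in replicate 2. All 6 excitatory neuron markers had a promoter peak in both mice. Inhibitory neuron markers had one at 3 of 6 genes in replicate 1 and 1 of 6 in replicate 2, none of them in both shorter lists. In the longer lists Gad1, Gad2, Pvalb and Slc32a1 each had a promoter peak in both mice. Microglia markers had one at 4 of 14 genes in replicate 1 and 3 of 14 in replicate 2, with Cx3cr1, P2ry12, Tmem119, Spi1 and Csf1r at 0 in both of the shorter lists, although Cx3cr1 and Spi1 were in both of the longer ones. Endothelial markers had 2 of 8 in replicate 1 and 0 of 8 in replicate 2, astrocyte markers 5 of 7 and 3 of 7, oligodendrocyte markers 2 of 6 and 3 of 6, and mural markers 2 of 4 and 1 of 4. T cell, B cell and neutrophil or monocyte markers had 1 gene each in both mice, of 6, 5 and 6 genes. How far cell composition moves with the shares of the immune genes was not tested.

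Among chemokine ligands, 10 of 35 had a promoter peak in replicate 1 and 5 in replicate 2. Ccl25, which attracts thymocytes and gut-homing T cells, had a height of 9.74 in replicate 1 and 5.99 in replicate 2, but the same peak covers the start of the neighbouring gene Elavl1. Ccl27a, a skin-homing chemokine, had 2.37 and 1.84 at its start, and 53.5% of the 31-bp windows of that peak occur elsewhere in the genome. Ccl28, a mucosal chemokine, had 1.89 and 1.24, at a start inside the gene about 25.7 kb from its first start. These 3 tall ligand peaks were thus shared, multi-copy or internal.

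Cxcl14, a chemokine of epithelia and brain interneurons, had 1.09 and 0.881 at its own start in a CpG-rich promoter. Ccl2, the monocyte attractant, had 0.731 and 1.06 at a peak whose middle lay 15 bp downstream of the start in replicate 1 and 41 bp upstream in replicate 2, and was the only ligand higher in replicate 2. The other 5 ligands were listed in replicate 1 alone. Cxcl12, the ligand of Cxcr4 that guides neuronal migration, had 0.949 there, Ccl11 (eotaxin) 0.893, Cxcl5, a neutrophil attractant, 0.768, Ccl22, a macrophage-derived chemokine, 0.687, and Cxcl10, the interferon-induced ligand of Cxcr3, 0.681. In the longer list of replicate 2, Ccl22 had 0.385 and Ccl11 0.371, whereas Cxcl12, Cxcl5 and Cxcl10 had no promoter peak there either.

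Cxcl12 was open beside its promoter in both mice. The site 1535 bp upstream of its start had 2.77 in replicate 1 and 1.88 in replicate 2, and a site in one of its exons, 5525 bp downstream of the start, had 2.13 and 0.894. Between these, replicate 1 alone had 6 lower peaks, from 0.506 to 0.949. No promoter peak in any list was found for 19 ligands, among them the inflammatory chemokines Ccl3, Ccl4 and Ccl5, the interferon-induced Cxcl9, the lymphoid chemokines Ccl19, Ccl21a and Cxcl13, and Cxcl16.

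Of the interleukins and antagonists, 9 of 41 had a promoter peak, and the same 9 genes were listed in both mice. Il4i1 was the tallest with 8.29 in replicate 1 and 6.21 in replicate 2, in a peak that also lies over the start of Nup62, a nuclear pore gene, and 194 bp from a start of Atf5. Il6, the acute-phase cytokine, had 3.80 and 1.75. Its peak ran from 30013201 to 30013400 on chromosome 5 in both mice, with its middle in an intron 186 bp downstream of the start, and held 6 and 4 footprints. Il6 thus had a peak at the same place in both mice, taller in replicate 1.

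Il17d, an interleukin 17 family member, had 3.28 and 1.62 in a CpG-rich first part of the gene, in an intron about 0.9 kb (replicate 1) and 1.1 kb (replicate 2) from the start. Il12a, the p35 chain of interleukin 12, had 2.87 and 1.71 at a start inside the gene, 3.3 kb from the first one. Il12b, the p40 chain that interleukin 12 shares with interleukin 23, had 1.05 and 0.777, at the upstream position printed above. Il17b had 1.95 and 1.27 as its highest peaks, at different places, and the place of the replicate 2 peak was also listed in replicate 1 with 1.79.

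Il18, an inflammasome product, had 1.31 in replicate 1 and 1.69 in replicate 2, 141 bp (replicate 1) and 261 bp (replicate 2) from a start of Bco2. Il33, the nuclear alarmin, had 1.03 and 0.860 directly upstream of its start. Il7, a lymphocyte growth factor, had 1.09 and 0.399 in an intron. The classical inducible and T cell cytokines Il1a, Il1b, Il2, Il3, Il4, Il5, Il9, Il13, Il17a, Il17f, Il21 and Il22 had no promoter peak in any list. Il10, an anti-inflammatory cytokine, appeared in the longer list of replicate 2 alone with 0.268, and Il15, a lymphocyte growth factor, in the longer lists of both with 0.281 and 0.268.

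Il34, a ligand of the microglial receptor Csf1r, had no promoter peak in the shorter lists and 0.275 in the longer list of replicate 1. Away from its annotated starts it had a peak in one of its exons with 2.69 in replicate 1 and 1.57 in replicate 2. An intron peak of Il34 beside it had 1.14 and 0.991. Csf1r itself was at 0 in the shorter lists of both mice and had 0.543 in the longer list of replicate 1 alone.

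**Figure D2:**
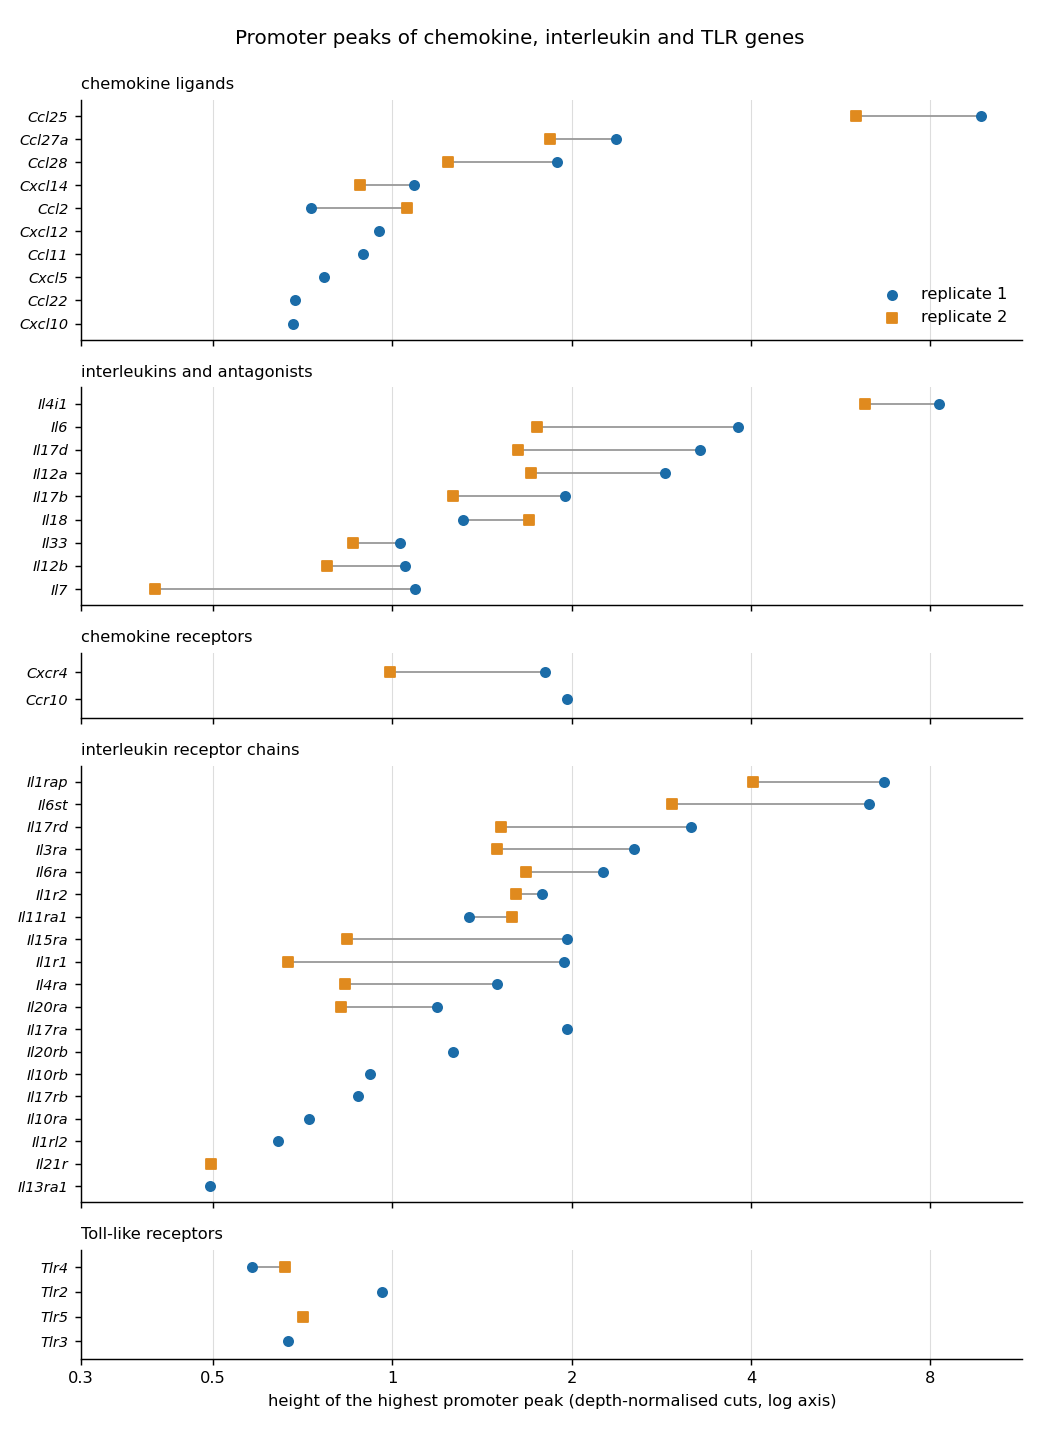
Height of the highest promoter peak, in depth-normalised DNase I cuts on a log axis, of 44 of the 45 genes with a peak in at least 1 mouse; circles are replicate 1, squares replicate 2, a line joins the mice, and genes with a single symbol had no listed peak in the other. Ccl25, Il4i1, Il1rap and Il6st stand above 6 in replicate 1, and most genes listed in 1 mouse alone lie under 1.

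Chemokine receptors had the lowest share of the 5 classes, 11.8% in each mouse, against 63.5% and 58.4% of all coding genes. Ligands were near in replicate 2 with 14.3%, and with peaks above the median height TLRs were the lowest class. In each mouse 2 of 17 chemokine receptor genes had a promoter peak, of which 1 was the same gene. That gene was Cxcr4, the receptor of Cxcl12, with 1.81 in replicate 1 and 0.991 in replicate 2, at 857 bp (replicate 1) and 817 bp (replicate 2) upstream of its start. Ccr10, the receptor of Ccl27a and Ccl28, had 1.97 in replicate 1 alone, in a peak 187 bp from a start of Cntnap1, a gene of axon and myelin junctions, and it had 0.777 in the longer list of replicate 2. The inflammatory receptors Ccr1, Ccr2, Ccr3, Cxcr2 and Cxcr3 and the lymphoid receptors Ccr7 and Cxcr5 had no promoter peak in any list.

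Interleukin receptor chains had the highest share, 18 of 39 genes in replicate 1 and 12 in replicate 2 (46.2% and 30.8%). Of all coding genes, 63.5% and 58.4% had a promoter peak. Il1rap, the accessory chain of the interleukin 1, 33 and 36 receptors, had 6.68 in replicate 1 and 4.02 in replicate 2. Il6st (gp130), the signalling chain of the interleukin 6 family, had 6.31 and 2.95. Both are shared signalling chains, and both had a peak with its middle within 60 bp of the start. Il6ra, the chain that binds interleukin 6, had 2.26 and 1.68.

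Il17rd, which modulates growth factor and interleukin 17 signals, had 3.17 and 1.52. Il3ra had 2.55 and 1.50 as its highest peaks, at different upstream places, each also listed in the other mouse, with 1.14 in replicate 2 at the first place and 1.94 in replicate 1 at the second. Il1r1, the signalling receptor of interleukin 1, had 1.94 and 0.667, and Il1r2, its decoy receptor, 1.78 and 1.61, both at starts inside the gene and 41.5 kb (Il1r1) and 11.7 kb (Il1r2) from the first start in replicate 1. Il11ra1 had 1.34 and 1.59, also at a start inside the gene. Of the remaining chains with a peak in both mice, Il15ra had 1.97 and 0.839 as its highest peaks, at different places, with 0.722 in replicate 2 at the place of the replicate 1 peak. Il4ra had 1.50 and 0.832, and Il20ra 1.19 and 0.819.

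In replicate 1 alone 7 chains were listed: Il17ra, the common chain of interleukin 17 receptors, with 1.96, Il20rb with 1.26, Il10rb with 0.918, Il17rb with 0.874, Il10ra with 0.725, Il1rl2 with 0.643 and Il13ra1 with 0.493. Il21r was listed in replicate 2 alone with 0.495, and the longer list of replicate 1 gave it 0.543. The lymphocyte chains Il2rb, Il2rg, Il7r and Il9r and the interleukin 33 receptor chain Il1rl1 had no promoter peak in any list. Il1rl1 was thus unlisted in both mice, while its ligand gene Il33 and its partner chain Il1rap each had a peak in both.

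TLRs had a promoter peak at 3 of 12 genes in replicate 1 and 2 in replicate 2. Tlr4, the lipopolysaccharide receptor, was the only one in both, with 0.581 in replicate 1 and 0.660 in replicate 2 over its first start. Tlr2, the lipopeptide receptor, had 0.962 and Tlr3, the double-stranded RNA receptor, 0.668 in replicate 1 alone, and the longer list of replicate 2 gave them 0.461 and 0.392. Tlr5, the flagellin receptor, had 0.709 in replicate 2 alone, 17.6 kb into the gene at an internal start. In the longer list Tlr6 had 0.437 and Tlr7 0.375 in replicate 1 alone, and Tlr1, Tlr8, Tlr9, Tlr11, Tlr12 and Tlr13 had none in any list.

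The genes through which these receptors signal differed from the receptors in their values. Of 20 genes of TLR and interleukin 1 receptor signalling, 18 had a promoter peak in replicate 1 and 15 in replicate 2. Tollip had 8.86 and 6.97 and the adaptor Myd88 6.45 and 5.73. Ly96, the Tlr4 partner, had 0.874 in replicate 1 alone, and 0.495 in the longer list of replicate 2. The Tlr4 co-receptor Cd14 was in no list. Of 17 NF-kB and IRF genes, 15 had a peak in each mouse, with Nfkbib at 8.21 and 9.50, Rela at 6.40 and 1.94, and Irf5 and Irf7 at 0. In the longer list of replicate 1 Irf5 had 0.618 and Irf7 0.550. Of 17 JAK-STAT genes, 16 and 15 had a promoter peak, with Stat3 at 9.56 and 8.26, Jak1 at 5.93 and 4.75, and Stat4 at 0. Of all coding genes, 63.5% and 58.4% had a promoter peak. Most genes of these lists had CpG-rich promoters. In the third and highest of 4 equal classes of promoter CpG content, 86.0% to 97.6% of all coding genes had a peak.

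Lists of other secreted or receptor genes were lower. Among 12 other chemokine and scavenger receptor genes, 4 had a promoter peak in replicate 1 and 3 in replicate 2. Cx3cl1, the neuronal ligand of microglial Cx3cr1, had 4.92 and 2.90, and Ackr3, the second receptor of Cxcl12, had 1.87 and 1.27. Among 22 other cytokine and receptor genes, 11 and 10 had a promoter peak, with the interferon receptor chain Ifnar1 at 7.24 and 5.27. Tnf, Ifng, Lif and Osm were at 0 in both. In the longer list of replicate 1 Lif had 0.556 and Osm 0.450, whereas Tnf and Ifng were in no list.

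The family's promoters were poor in CpG. The ratio of observed to chance CpG in 1 kb around a start was taken at each gene's start with the highest ratio. Its median was 0.264 in the family and 0.634 in all other coding genes. By the same ratio, 80 of the 144 genes (55.6%) fell in the lowest of 4 equal CpG classes of all coding genes, against 24.8% of the others. In that class 8 family genes had a promoter peak in replicate 1 and 7 in replicate 2 (10% and 8.75%), against 6.34% and 5.75% of all coding genes of that class. Without the olfactory and vomeronasal receptor genes, a comparison chosen after seeing the data, the other genes of the class had 8.23% and 7.43%.

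In the second class 22 and 13 of 49 family genes had a peak (44.9% and 26.5%), against 57.2% and 49.7% of all coding genes of that class. In the third it was 4 and 3 of 6, against 93.0% and 86.0%, and in the highest 8 and 7 of 9, against 97.6% and 92.2%. The 7 interleukin receptor chains of the upper 2 classes (Il1rap, Il6st, Il17rd, Il3ra, Il6ra, Il4ra and Il17ra) all had a peak in replicate 1, and all except Il17ra in replicate 2. In the same classes Tlr6, Cxcl16 and Ccr9 had none in the shorter list of either mouse.

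**Figure D3:**
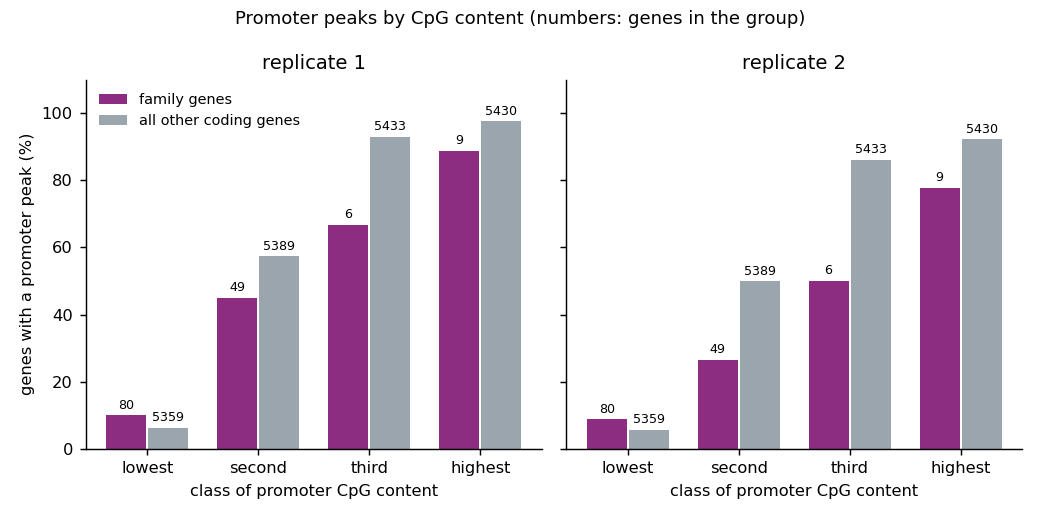
Percent of genes with a promoter peak in replicate 1 (left panel) and replicate 2 (right panel) by class of promoter CpG content (4 equal classes of all coding genes), for the 144 family genes and all other coding genes; the number above a bar is the number of genes. The family is at 10% and 8.75% in the lowest class, above the other genes, and below them in the other 3 classes of both mice.

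Peaks of the family were low as well as few. The median height of their promoter peaks was 1.33 in replicate 1 and 1.25 in replicate 2, against 4.17 and 2.51 for promoter peaks of all coding genes. Where both mice had a peak, the ratio of the highest peak of replicate 1 to that of replicate 2, which need not lie at the same place, had a median of 1.54 over the 27 family genes and 1.65 over all coding genes. Il1r1 had the highest ratio, 2.91, and Ccl2 the lowest, 0.690.

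Peaks in 1 mouse alone were found at 18 of the 144 genes, against 6.61% of all coding genes, with 15 in replicate 1 and 3 in replicate 2. They made up 40.0% of the 45 family genes with any promoter peak and 10.2% of other such genes. Of the 16 family genes whose taller peak was under 1, 15 were listed in 1 mouse, and 66.6% of other genes of that height were. At a height of 1 or more it was 3 of 29 family genes and 5.06% of the others. In 10 of the 15 cases the longer list of replicate 2 held a promoter peak, and in 2 of the 3 the longer list of replicate 1 did. Over all coding genes it was 798 of 1277 and 111 of 162, so the family was near the share of all genes. In the longer lists 61 and 45 family genes had a promoter peak, against 67.8% and 64.0% of all coding genes. In both of the longer lists there were 42, against 62.9% of all coding genes, and 19 were in that of replicate 1 alone and 3 in that of replicate 2 alone, against 6.10% of all coding genes in 1 mouse alone. No list of either mouse held a promoter peak of the remaining 80.

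Footprints lay wholly inside 38 of 42 promoter peaks of the family in replicate 1 (90.5%) and 30 of 30 in replicate 2, against 98.6% and 97.9% of all coding promoter peaks. The 4 without one in replicate 1 were at Il11ra1, Ccl22, Il17rb and Il10ra, and all 4 were in the lowest of 4 equal height classes of promoter peaks, which held 31 of the 42. In that class 95.2% of all coding promoter peaks held a footprint. Footprints per peak averaged 3.83 in replicate 1 and 3.33 in replicate 2 for the family, against 4.81 and 4.14.

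A set of 10 sequence patterns was searched on both strands in 200 bp around the middle of each promoter site. The NF-kB pattern (GGG and TTTCC with any 2 bases between) was in 3 of 76 family sites (3.95%) and 1.04% of all coding promoter sites, the IRF pattern (GAAA repeated after any 2 bases) in 3 (3.95%) and 1.25%, and the AP-1 pattern TGANTCA in 7 (9.21%) and 3.67%. The STAT pattern TTCNNNGAA stood at 3.95% and 3.72%, the GC box GGGGCGGGG at 13.2% and 11.97%, and the CTCF core AGGGGGCGC at 0 of 76 and 1.89%. The counts behind the family shares are small.

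Counting peaks anywhere in a gene or its 10 kb flanks, 96 of the 144 genes had at least 1 peak in replicate 1 and 89 in replicate 2 (66.7% and 61.8%), against 78.4% and 76.7% of all coding genes. They averaged 1.90 and 1.26 peaks, against 3.48 and 2.72 for all other coding genes. The genes were shorter, with a median of 9525.5 bp against 17524 bp, and per 100 kb searched the family had 4.68 and 3.10 peaks against 5.01 and 3.91. The 288 separate sites comprised 69 at the gene's own promoter, 7 at a promoter shared with another coding gene, 53 at a promoter of another coding gene, 18 in own exons, 61 in own introns, 27 in the body of another gene and 53 in intergenic flanks. Of these sites 143 (49.7%) were in both mice, against 52.5% of all sites in the genome.

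Among the genes with the most peaks, Il34 had 16 peaks in replicate 1 and 3 in replicate 2, and 10 of the 16 were low peaks from 0.294 to 0.543 around the start of the neighbouring gene Mtss1l. Il17b had 10 and 2, Cxcl12 8 and 2, Il17d 8 and 2 and Il17ra 9 and 4. Il4i1 had 8 in each mouse, Il3ra and Il17rd 8 and 6 each, and Il11ra1, whose annotated span of 69486 bp takes in several other genes, 20 and 13. Peaks at most 400 bp from the next made up 36.0% and 19.2% of the family's peaks, and 31.2% and 20.1% of all peaks.

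Outside promoters, the tallest listed site was in an intron of Il31ra, a chain of the interleukin 31 receptor, with 31.4 in replicate 1 and 16.2 in replicate 2. Of its 31-bp windows 58.2% occur elsewhere in the genome, at up to 13 places. Its letters resemble those of large-subunit ribosomal RNA, whose genes are present in many copies, which was not checked against a ribosomal sequence here. Whether its height and footprints belong to this intron was not tested. It is printed here on the gene's strand, with capitals for bases in footprints of both mice.
Il31ra (chr13:112578141-112578340, minus strand): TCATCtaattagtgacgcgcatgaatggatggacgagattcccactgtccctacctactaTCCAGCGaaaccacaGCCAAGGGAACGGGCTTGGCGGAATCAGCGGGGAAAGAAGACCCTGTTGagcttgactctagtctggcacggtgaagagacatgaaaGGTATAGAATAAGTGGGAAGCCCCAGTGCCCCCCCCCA
The sites next in height were far lower. A flank site 2.5 kb downstream of the start of Ccl17, a ligand of Ccr4, had 3.14 and 2.70, although Ccl17 had no promoter peak in the shorter lists. A flank site of Il4ra had 3.65 and 2.11, an exon site of Il17ra 3.36 and 2.30, and an intron site of Il11ra1 2.60 and 2.22. An intron site of Il2ra, the high-affinity chain of the interleukin 2 receptor, had 2.00 and 2.27, with no promoter peak of Il2ra in any list.

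Runs of at least 3 family genes within 300 kb of each other numbered 9. The Ccl27b to Ccl21a run on chromosome 4 had no peak in either mouse over 119 kb. The interleukin 1 family run from Il1f8 to Il1rn on chromosome 2 had 1 peak in each mouse, or 5.04 per Mb. The Cxcl5 to Cxcl2 run on chromosome 5 had 1 peak and 0 peaks, or 6.82 and 0 per Mb. The genome had 28.1 and 23.1 per Mb. The Il4 to Il5 run on chromosome 11, with Il13 between them, had 40.9 and 24.6, from 5 and 3 peaks over 122 kb. The Ccl5 to Ccl4 run on the same chromosome had 36.0 and 21.6, from 5 and 3 peaks over 139 kb. Rates from so few peaks do not rank the runs. The Il4 to Il5 run overlapped 4 coding genes, of which 3 were family genes. The Ccl5 to Ccl4 run overlapped 6, of which 5 were. No family gene of the Il4 to Il5 or Ccl5 to Ccl4 runs had a promoter peak, so the peaks there lay away from the starts of these genes.

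**Figure D4:**
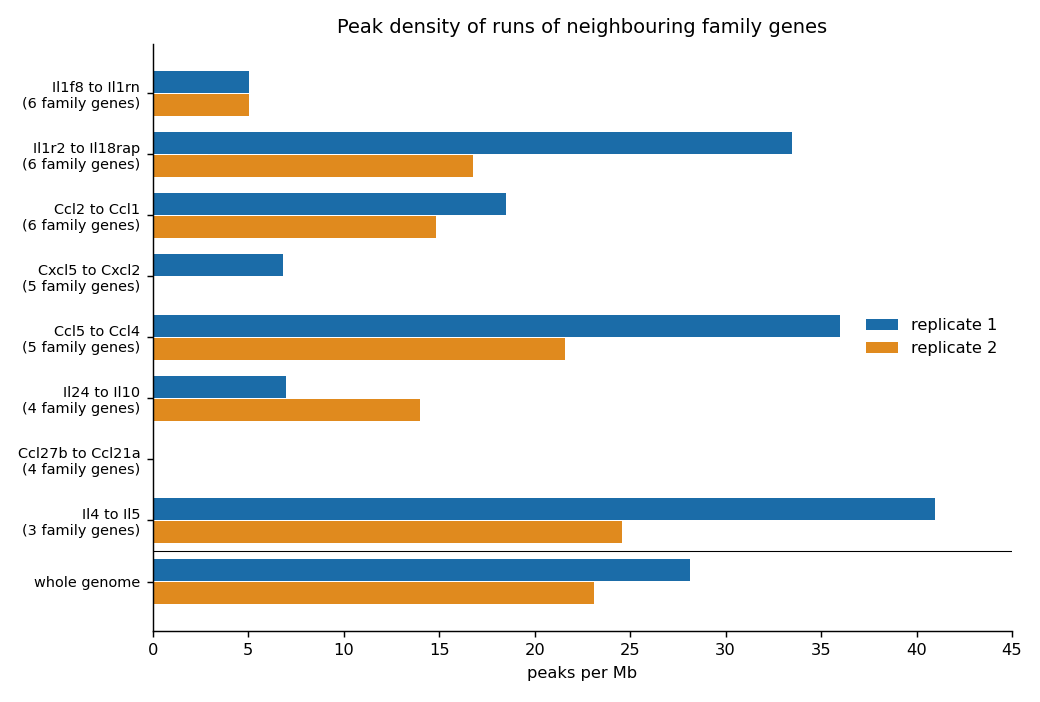
Peaks per Mb of the shorter list in replicate 1 and replicate 2 over 8 of the 9 runs of neighbouring family genes and the whole genome. The Ccl27b to Ccl21a run has none, and the Il1f8 to Il1rn run has 5.04 in each mouse, from 1 peak. The Il4 to Il5 run reaches 40.9 in replicate 1, from 5 peaks, against 28.1 for the genome.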

How the data were processed

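Both libraries belong to 1 group. Column 7 of the deposited peak lists is a signal, the height of the peak, with no stated normalization. Heights were read as DNase I cuts scaled to depth, because all were whole multiples of 1 step per library (within 0.02 of a step). Bases whose adjusted p-value was 0.05 or less are in a further deposited list. The score of the deposited footprints was 0.01 throughout, so positions alone were used. The sources used here do not name the peak caller or the aligner. The assembly was mm10, per the labels.

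Gene models were those of GENCODE M21, and bases were read from GRCm38.p6 with 1-based positions. A gene's promoter value is its highest peak within 1 kb of any start, or 0. Python 3.11.15, pandas 2.3.3, NumPy 2.4.6 and matplotlib 3.10.9 were used. Errors are SD over mice. Planted promoter peaks in simulated data were found at 200 of 200 genes, which checks the overlap step and not peak detection in these libraries. Named genes were, per class, the 5 tallest, those in 1 mouse alone, the 3 with the most peaks and the 5 tallest other sites, and the extremes of the signalling lists; further names were added for their roles. Members and lists were chosen with earlier results of these data known. The results of 1 gene are not reported here, though it is in the counts.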

Additional observations from a re-analysis of the deposited data

How the results depend on the processing

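The share of family genes with a promoter peak was 25% and moved by more than the SD between the mice to 36.8% with the longer list, to 14.6% with peaks above the median height and to 32.3% with a window of 2500 bp. The share with a peak in the gene body and 10 kb flanks, 64.2%, became 80.2% with the longer list, 43.8% with peaks above the median, 36.8% in the gene body alone and 87.5% with 50 kb flanks. The peaks per gene, 1.58, became 2.66, 0.837, 0.792 and 4.60 under those settings. Of all coding genes, 61.0% had a promoter peak with the shorter list and 65.9% with the longer. For the share with a peak in the gene body and flanks, all coding genes had 77.5% with the shorter list and 83.2% with the longer. By that share the family thus lay much nearer to all coding genes with the longer list. Peaks above the median and other windows and flanks were not run on all coding genes, so the family's gap under them is not known. The share of promoter peaks that hold a footprint, 95.2%, became 82.4% with the longer list. Equal numbers of peaks, a 500 bp window, the 5′ end alone, leaving out peaks near other starts or near-identical copies, and footprints overlapping by 1 bp stayed within that SD, as did peaks at most 400 bp apart counted as 1, which was chosen after seeing the data (1.29 per gene). Leaving out each mouse gave 20.8% to 29.2%, 61.8% to 66.7%, 1.26 to 1.90 and 90.5% to 100%. The TLR share was 0 with peaks above the median, again without a share of all coding genes beside it. No paired analysis was possible because both mice belong to 1 group. Peaks under the listing threshold cannot be seen, so a gene without a listed peak was not shown to be closed. Values rest on 2 mice.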
